A study of Sus scrofa with 6 samples.

Results

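The respiratory chain subunits that are encoded in the nucleus were compared between longissimus thoracis (LT), a muscle of the back, and semitendinosus (ST), a muscle of the hind limb, of Min pigs. The genes were picked by a rule on their names, which was set with earlier results of these data known. They were the protein-coding genes outside the mitochondrial genome whose Ensembl symbol on Sscrofa11.1 is NDUFA, NDUFB, NDUFC, NDUFS or NDUFV with a number, SDHA to SDHD, UQCR names, CYC1, COX4 to COX8 names, or ATP5 names. This gave 64 genes of 20288 protein-coding genes listed, with 144 of 72511 transcripts. By name, 29 belong to complex I, 4 to complex II, 7 to complex III, 13 to complex IV and 11 to complex V. Of 72 gene names in the symbol table that meet the rule, 8 had no protein-coding gene under that identifier here.

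The respiratory chain passes electrons from NADH and succinate to oxygen in the inner mitochondrial membrane and pumps protons as it does so, and ATP synthase (complex V) uses the proton gradient to make ATP. Each complex except complex II is built from subunits encoded in the nucleus together with subunits encoded in mitochondrial DNA. Oxidative muscle fibres, which are mostly slow, are known for more mitochondria than fast glycolytic fibres, and the chain holds muscle isoforms of several complex IV subunits beside widespread ones.

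The libraries were made from total RNA of wild-type (WT) pigs after removal of rRNA, 3 from LT and 3 from ST, and the LT and ST libraries with the same number came from the same pig. The muscles were sampled whole from animals of a single age and breed, so each library mixes fibres with the vessels, fat and nerves of the muscle. The authors deposited FPKM, the fragments of a transcript relative to its length and to the mapped total of its library, and FPKM was summed here over the transcripts of a gene. All FPKM of a library summed to between 376461 and 404473. Fragment counts were not given, so the depth behind a value is unknown and no counting interval could be computed.

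The muscle fibre markers ACTA1, CKM and DES summed to between 6110 and 6780 FPKM in LT and between 6580 and 8970 FPKM in ST. MYH7 and the fast myosin heavy chain genes on the marker lists had no gene under their symbol here. The library of ST from pig 2 (ST2) stood apart from the other ST libraries in fibre markers. The slow fibre markers, 6 of 7 with values, summed to 37000 FPKM in ST1, 5990 FPKM in ST2 and 37200 FPKM in ST3, against 4460 to 6800 FPKM in LT. The fast fibre markers, 4 of 8 with values, summed to 4290 FPKM in ST1, 18200 FPKM in ST2 and 1060 FPKM in ST3, against 20300 to 27000 FPKM in LT. ST2 was therefore close to LT in these markers, and values without it are given beside some of the results.

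Most subunit genes had higher values in ST. The log2 difference, ST minus LT of FPKM + 0.1, was above 0 for 61 of the 64 genes, where 65.4% of all 13994 genes tested were above 0. The median over the 64 genes was 0.63, against 0.17 over all genes tested, and all 64 passed the filter of FPKM above 0.1 in at least 1 library. ST values lay above all LT values for 38 of the 64 genes (19.2% of all genes), and LT values lay above all ST values for 0 of them (7.42% of all genes). The value was higher in ST within all 3 pigs for 48 genes (36.6% of all genes). Whether a gene has a higher value because more cells carry its RNA or because each cell holds more of it cannot be told apart in RNA of whole muscle.

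Few of these differences were large enough against the spread of 3 libraries per muscle for a call across the genome. By limma with Benjamini-Hochberg adjustment over all genes tested, 1 of the 64 genes, NDUFB6, had an adjusted p under 0.05 with a higher value in ST (0.565% of all genes), and 0 had one with a lower value. At an unadjusted p under 0.05, 36 genes were higher (15.2% of all genes) and 0 were lower (5.43% of all genes). With the pig as a block, 14 genes were called higher (5.82% of all genes), and without ST2 20 genes were called (4.81% of the 13897 genes then tested). After quantile normalization, which moved the median of all genes to −0.01, the median of the 64 genes was 0.49, 26 were higher at an unadjusted p under 0.05 (9.14% of all genes) and 0 were called with or without the block. Among 883 genes with FPKM above 38.8 and no transcript over 8079 bases, 22.1% were higher at an unadjusted p under 0.05 and the median log2 difference was 0.04. The 48 subunit genes in that range had a median of 0.65, with 29 higher at that threshold.

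**Figure D1:**
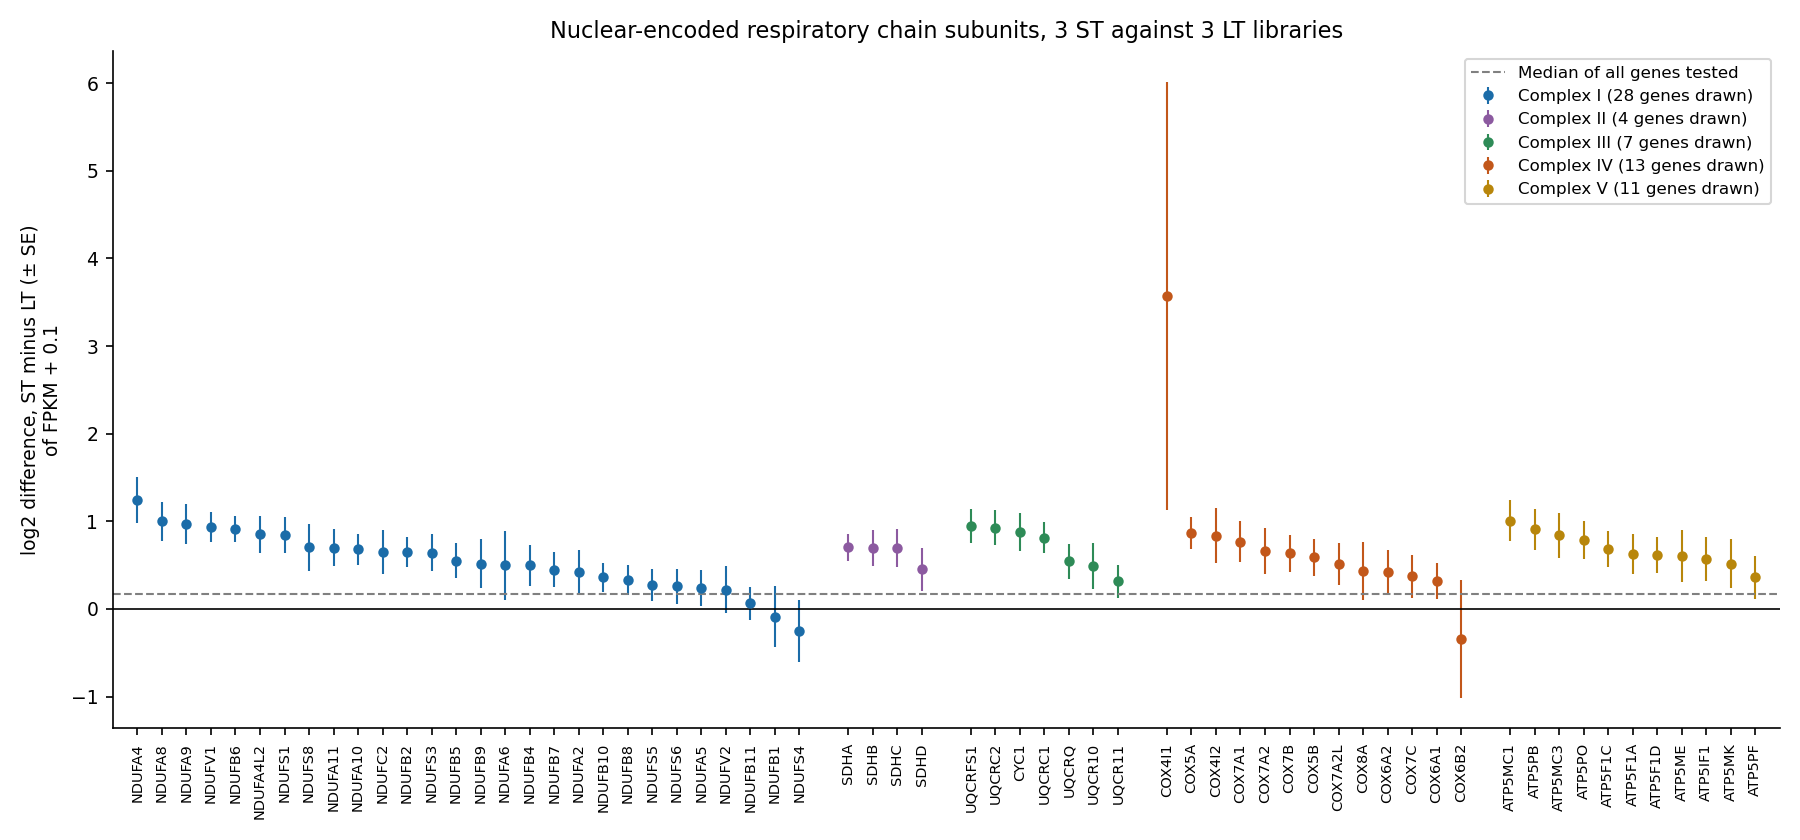
Each point is the log2 difference of a gene, ST minus LT of FPKM + 0.1, and each bar its standard error from limma over 3 libraries per muscle; genes are ordered by complex and the dashed line is the median of all genes tested, 0.17. 1 gene of the 64 is not drawn. Of the 63 genes drawn 60 lie above 0, and COX4I1 at 3.57 has the widest bar.

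Summed over the 64 genes, FPKM reached 7370, 7030 and 5910 in the LT libraries against 11700, 9480 and 11900 in the ST libraries. The lowest ST library was above the highest LT library, and the LT libraries averaged 6770 ± 764 (SD, n = 3) against 11000 ± 1330 (SD, n = 3) for ST, a ratio of 1.62. The genes took 1.73% ± 0.145 (SD, n = 3) of all FPKM in LT and 2.80% ± 0.244 (SD, n = 3) in ST.

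The sums of the complexes stood in similar proportion. The ratio of the ST mean to the LT mean was 1.63 for complex I, 1.5 for complex II, 1.62 for complex III, 1.65 for complex IV and 1.63 for complex V. For every complex the 3 ST sums lay above the 3 LT sums. The complex I sum, 2670 in LT and 4360 in ST on average, includes NDUFA4 at 598 and 1410. NDUFA4 is now regarded as a subunit of complex IV. Moving it there would lower the ratio of complex I and raise that of complex IV, by amounts that were not computed. The likeness of these ratios therefore holds for the grouping by name alone. The complex IV sum, 835 in LT and 1370 in ST, includes COX4I1 at 17.2 and 121, with values near 0 in some libraries. The coefficient of variation of a gene over the 3 libraries had a median of 17.6% in LT and 16.3% in ST, highest for COX4I1 in both.

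**Figure D2:**
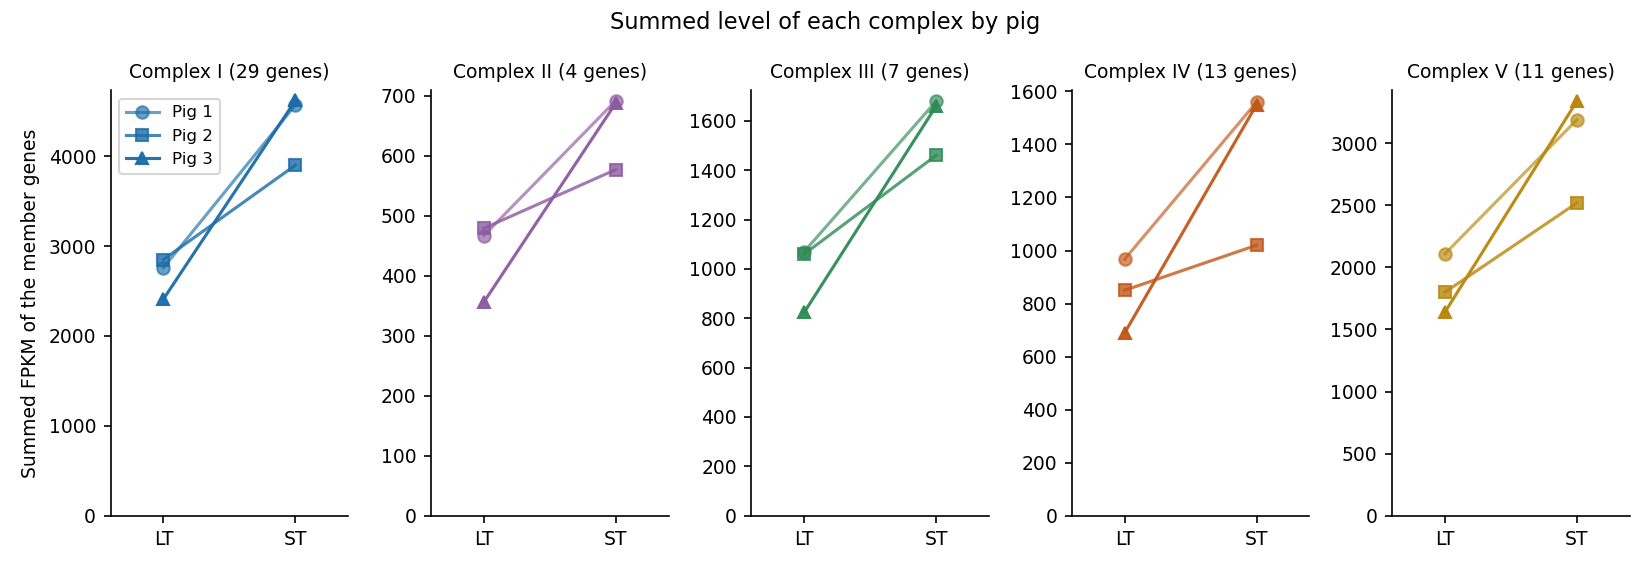
Each panel gives, for a complex, the summed FPKM of its genes in LT and ST, with a line for each pig; axes start at 0 and differ between panels. All lines go up from LT to ST, and the line of pig 2 is the flattest in each panel.

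Complex I takes electrons from NADH through an FMN group and a row of iron-sulphur clusters to ubiquinone. The log2 difference was above 0 for 27 of its 29 genes (65.4% of all genes), with a median of 0.55. For 17 genes the ST values lay above all LT values (19.2% of all genes). By limma, 15 of the 29 genes were higher at an unadjusted p under 0.05 (15.2% of all genes). The sum of FPKM reached 2760, 2850 and 2410 in LT against 4570, 3900 and 4620 in ST.

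NDUFB6, an accessory subunit of the membrane arm (ENSSSCG00000011003), had FPKM of 8.38, 8.08 and 8.06 in LT against 15.5, 14.4 and 16.6 in ST. The libraries of each muscle lay close together and the muscles did not overlap, with a log2 difference of 0.91 ± 0.15 (SE) and an adjusted p of 0.0453. It was called with the pig as a block and without ST2, at 0.0281 and 0.0217, but not when any other library was left out. The value rests on a long gene model, on chromosome 10 from 33470106 to 33865231 of Sscrofa11.1. Nearly all of its FPKM came from a transcript of 21 exons and 4304 bases that spans 394972 bases and overlaps transcripts of APTX on the same strand, while the RefSeq gene of that name spans 15875 bases. The 624-base transcript that matches the RefSeq span was listed at 0 to 0.263 FPKM.

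NDUFA4 had the highest level of all 64 genes, with a mean of 1010 FPKM. It is named as a complex I subunit and is now regarded as a subunit of complex IV. It reached 630, 646 and 518 FPKM in LT against 1570, 1220 and 1450 in ST, so that every ST library was far above every LT library. The log2 difference was 1.24 ± 0.26 (SE), with an adjusted p of 0.0678, or 0.0394 with the pig as a block.

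NDUFV1, which binds NADH and FMN, had FPKM of 41.9, 41.5 and 36.1 in LT against 78.6, 65.7 and 85.8 in ST. The muscles did not overlap, and the log2 difference of 0.94 ± 0.17 (SE) had an adjusted p of 0.0568, or 0.0344 with the pig as a block. NDUFS1, the largest iron-sulphur subunit, had FPKM of 105, 88.7 and 73.1 in LT and 173, 137 and 168 in ST. Its lowest ST library was again above its highest LT library, with a log2 difference of 0.85 ± 0.21 (SE) and an adjusted p of 0.0832, or 0.0464 with the block. NDUFS8, a subunit with iron-sulphur clusters, had 41.3, 22.7 and 28.4 FPKM in LT and 60.5, 37.3 and 51.3 FPKM in ST. ST2 was below LT1 but above LT2 of its own pig, and the adjusted p was 0.196, or 0.0446 with the block. NDUFV2, the partner of NDUFV1, had 96.3, 95.5 and 90.1 FPKM in LT and 132, 72.3 and 138 FPKM in ST. ST2 was here below all LT libraries, and the log2 difference was 0.22 ± 0.26 (SE), or 0.52 without ST2. The 834-base transcript of NDUFV2 had 72.8, 5.1 and 82.4 FPKM in ST, and alone gave a log2 difference of −0.91. A 1978-base transcript had 27.5 FPKM in ST2 and 0 in ST1 and ST3.

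Of the accessory genes, NDUFA8 and NDUFA9 had the next highest differences after NDUFA4. NDUFA8 had FPKM of 96.4, 71.5 and 81.1 in LT and 182, 129 and 191 in ST, with a log2 difference of 1.0 ± 0.22 (SE) and an adjusted p of 0.0714, or 0.0301 with the block. NDUFA9, which lies beside the ubiquinone site, had FPKM of 25.4, 36.1 and 29.2 in LT and 66.0, 44.5 and 69.3 in ST. Both genes were higher in every ST library than in any LT library.

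NDUFS4 and NDUFB1 were the genes of complex I with values below 0, at −0.25 and −0.09, the latter −0.016 without ST2. NDUFS4, an accessory subunit needed for assembly of the NADH-binding part, had FPKM of 46.6, 96.0 and 33.3 in LT and 47.6, 40.9 and 45.3 in ST. LT2 was far above the other libraries and the rest overlapped, with a standard error of 0.36 and an adjusted p of 0.729. In LT2, 52.6 FPKM came from a transcript of 697 bases that had at most 0.989 FPKM in any other library. The 2794-base transcript of NDUFS4 alone had 39.9, 20.4 and 26.1 FPKM in LT and 42.3, 38.8 and 35.9 FPKM in ST, a log2 difference of 0.49.

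Complex II, succinate dehydrogenase, is shared with the tricarboxylic acid cycle and has all its subunits encoded in the nucleus. All 4 genes had ST values above all LT values (19.2% of all genes). SDHA, which binds FAD and oxidises succinate, had FPKM of 56.4, 52.2 and 47.1 in LT against 82.7, 82.1 and 88.1 in ST. The spread of these sums within a muscle was small beside the gap. The log2 difference of 0.70 ± 0.16 (SE) had an adjusted p of 0.0731, or 0.0491 with the block. The main transcript of SDHA, of 6618 bases, had 52.2, 48.6 and 45.3 FPKM in LT and 55.4, 78.3 and 53.4 FPKM in ST. Its log2 difference alone was 0.34. A 6474-base transcript had 22.6 FPKM in ST1 and 27.2 FPKM in ST3, and 0 in the other libraries. SDHB, the iron-sulphur subunit, had FPKM of 175, 173 and 157 in LT and 296, 222 and 308 in ST. ST2 lay between LT and the other ST libraries, and the adjusted p was 0.120, or 0.0345 without ST2. The membrane anchors SDHC and SDHD had log2 differences of 0.70 ± 0.22 (SE) and 0.45 ± 0.25 (SE), with adjusted p of 0.139 and 0.341. Without ST2 SDHC was called, at 0.0494. SDHD had FPKM of 209, 227 and 133 in LT, where LT3 was low, and of 270, 243 and 247 in ST.

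Complex III passes electrons from ubiquinol to cytochrome c. It had the highest median of the complexes, 0.81. In 5 of 7 genes the ST values lay above all LT values (19.2% of all genes). With the pig as a block 4 genes were called higher (5.82% of all genes). UQCRFS1, the Rieske iron-sulphur protein, had FPKM of 75.7, 74.2 and 55.9 in LT against 145, 123 and 126 in ST. The log2 difference was 0.95 ± 0.19 (SE), and the adjusted p of 0.0644 became 0.0322 with the block. CYC1, the haem-bearing cytochrome c1, had FPKM of 227, 165 and 160 in LT and 347, 304 and 352 in ST. All ST libraries lay above LT1, the highest LT library, with a log2 difference of 0.87 ± 0.22 (SE) and an adjusted p of 0.0878, or 0.0482 with the block.

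The core proteins UQCRC1 and UQCRC2, the large matrix subunits of complex III, varied little among the ST libraries. UQCRC1 had FPKM of 172, 170 and 152 in LT and 284, 292 and 293 in ST. Thus ST2, low in slow fibre markers, was as high as the other ST libraries in this gene. UQCRC2 had FPKM of 84.0, 102 and 69.3 in LT and 163, 149 and 168 in ST, also without overlap. The adjusted p was 0.0713 for UQCRC1 and 0.0685 for UQCRC2, or 0.0460 and 0.0443 with the block. The small subunits UQCR10 and UQCR11 overlapped between the muscles. UQCR10, the highest of complex III, had FPKM of 280, 304 and 201 in LT and 399, 280 and 420 in ST, with an adjusted p of 0.338. At UQCR11 a transcript of MBD3 on the same strand overlaps the gene and had 22.0, 19.0 and 18.4 FPKM in LT and 6.96, 12 and 7.45 FPKM in ST. How fragments were divided between these genes was not tested.

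Complex IV, cytochrome c oxidase, reduces oxygen to water. Its log2 differences were above 0 for 12 of 13 genes (65.4% of all genes), with a median of 0.59. Only 4 genes had ST values above all LT values (19.2% of all genes). These were COX5A, COX7A1, COX7B and COX5B. COX5A, a subunit on the matrix side, had FPKM of 104, 94.3 and 87.7 in LT against 168, 161 and 195 in ST. The log2 difference was 0.87 ± 0.18 (SE), and the adjusted p of 0.0655 became 0.0411 with the block. COX7B, a small membrane subunit, had FPKM of 158, 172 and 139 in LT and 273, 196 and 264 in ST, with an adjusted p of 0.151, or 0.0490 without ST2. COX5B, a zinc-binding subunit and the highest of complex IV, had FPKM of 192, 181 and 146 in LT against 276, 220 and 285 in ST. Its log2 difference was 0.59 ± 0.21 (SE), with an adjusted p of 0.172. ST2 was the lowest ST library in all 4 of these genes.

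COX4I1, the widespread isoform of the largest nuclear subunit, had the largest difference of the 64 genes and the least certain. It reached 50.6, 0.205 and 0.948 FPKM in LT against 206, 0.755 and 155 in ST. LT2, LT3 and ST2 were near 0 while the other 3 libraries were high, and the log2 difference of 3.57 ± 2.44 (SE) had an adjusted p of 0.447. Without ST2 the log2 difference was 6.14. COX4I1 lies on the minus strand of chromosome 6, and its 782-base transcript, from 3131019 to 3137530, had 205 FPKM in ST1. A transcript of 2749 bases and 16 exons assigned to IRF8, from 3041645 to 3137549 on the same strand, spans this transcript whole. That transcript had 21.4, 40.1 and 31.1 FPKM in LT and 26.9, 62.4 and 45.0 FPKM in ST. When FPKM was multiplied by length in kilobases, which puts fragments of both on a common scale, COX4I1 and this transcript together gave 98.3, 110 and 86.0 in LT and 235, 172 and 233 in ST. On this scale no library was near 0 and the muscles did not overlap, with a log2 ratio of the means of 1.12. Whether fragments of COX4I1 were assigned to IRF8 in some libraries was not tested.

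**Figure D3:**
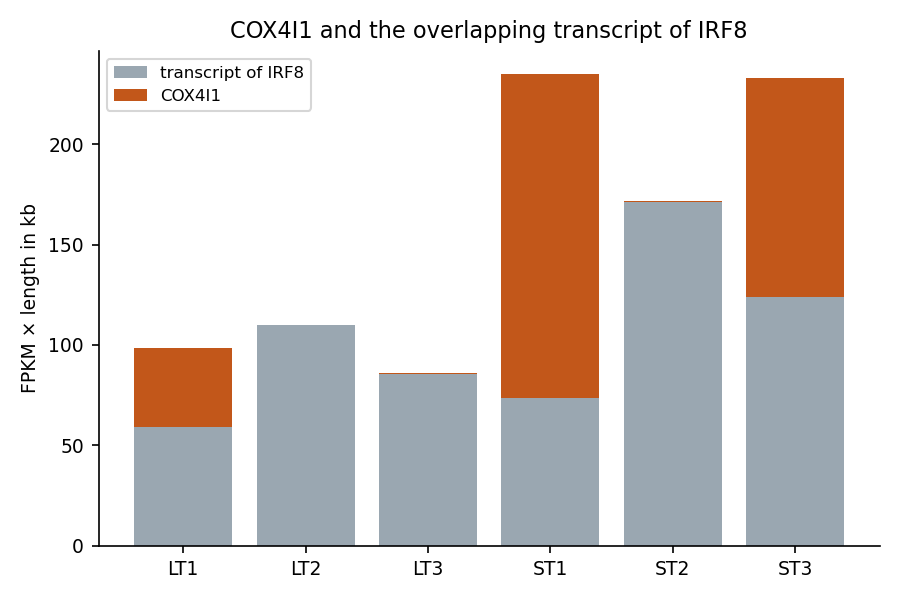
Bars give FPKM multiplied by transcript length in kilobases in each library, for COX4I1 and, below it, for the overlapping transcript of IRF8. COX4I1 is visible in LT1, ST1 and ST3 alone, while the summed bars are 86.0 to 110 in LT and 172 to 235 in ST.

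The muscle and widespread isoforms of complex IV had close shares in both muscles. COX6A2, the isoform of heart and skeletal muscle, made up 87.7% ± 2.59 (SD, n = 3) of the FPKM of COX6A1 and COX6A2 in LT and 88.5% ± 1.69 (SD, n = 3) in ST (exact permutation test, 2-sided, p = 0.7). COX6A1 rests on a single transcript model of 4860 bases, which overlaps a transcript of GATC on the same strand. That transcript had 7.14, 8.51 and 9.8 FPKM in LT and 7.7, 7.06 and 12 FPKM in ST. How fragments were divided between COX6A1 and GATC was not tested. COX7A1, the muscle isoform, made up 58.4% ± 3.38 (SD, n = 3) of the FPKM of COX7A1, COX7A2 and COX7A2L in LT and 60.5% ± 4.61 (SD, n = 3) in ST (exact permutation test, p = 0.8). The levels themselves were higher in ST, where COX7A1 had 180, 123 and 163 FPKM against 97.3, 106 and 71.3 FPKM in LT, a log2 difference of 0.77 ± 0.23 (SE) with an adjusted p of 0.126. COX6A2 overlapped, with 67.6, 46.8 and 43.7 FPKM in LT and 65.2, 56.6 and 90.4 FPKM in ST, and so did COX6A1, at 6.78 to 7.50 FPKM in LT and 6.77 to 10.4 FPKM in ST, with a log2 difference of 0.32, or 0.52 without ST2.

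The remaining isoforms were mostly minor. COX4I2, which is known from lung and hypoxia, had 14.5, 9.68 and 7.91 FPKM in LT and 25.1, 12.3 and 20.7 FPKM in ST, with an adjusted p of 0.191. Its log2 difference was 0.84 ± 0.32 (SE), or 1.13 without ST2. COX7A2 had a log2 difference of 0.67 ± 0.26 (SE), COX7A2L, a supercomplex factor, of 0.51 ± 0.24 (SE), and COX8A of 0.43 ± 0.33 (SE), and all 3 overlapped between the muscles. Without ST2 the difference was 0.78 for COX8A and also for COX7A2L, which was then called, at 0.0415. COX6B2, known as a testis isoform, was at the lower end of detection, from 0 to 0.465 FPKM, with a log2 difference of −0.34, or −0.62 without ST2. NDUFA4L2, a paralog of NDUFA4 known to respond to hypoxia, had 2.38, 1.87 and 2.75 FPKM in LT and 3.81, 4.86 and 4.12 FPKM in ST. It did not overlap, with a log2 difference of 0.85 ± 0.21 (SE) and an adjusted p of 0.0897, and NDUFA4 made up 99.6% of the pair in LT and 99.7% in ST (exact permutation test, p = 0.4). COX4I1 made up 30.2% ± 41.4 (SD, n = 3) of the FPKM of COX4I1 and COX4I2 in LT and 61.0% ± 47.9 (SD, n = 3) in ST (exact permutation test, p = 0.3), a share that carries the gap in COX4I1 values described above.

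Complex V had log2 differences above 0 for all 11 genes (65.4% of all genes), from 0.36 to 1.01. For 8 genes the ST values lay above all LT values (19.2% of all genes). ATP5F1A, the alpha subunit of the catalytic head, had FPKM of 237, 194 and 152 in LT and 275, 328 and 283 in ST, with an adjusted p of 0.179. ST2 was its highest library, and the FPKM was spread over 3 long transcript models. The 3025-base model had 145, 83.4 and 63.9 FPKM in LT and 69.6, 199 and 56.2 FPKM in ST, a log2 difference of 0.002. The 7550-base model had 42.8, 31.4 and 24.6 FPKM in LT and 102, 66.2 and 108 FPKM in ST, a log2 difference of 1.48. The 7421-base model had a log2 difference of 0.54. ATP5PB and ATP5PO, subunits of the stalk that holds the catalytic head, had log2 differences of 0.91 ± 0.23 (SE) and 0.79 ± 0.22 (SE). Their adjusted p-values were 0.0928 and 0.107, or 0.0213 and 0.0316 without ST2. ATP5IF1, the inhibitor of ATP hydrolysis, had the highest level of this complex, with 411, 338 and 318 FPKM in LT and 574, 417 and 604 FPKM in ST. ST2 exceeded LT1 by little, and the adjusted p was 0.242.

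Subunit c, which forms the rotating ring of the membrane part, is made from 3 genes that differ mainly in the targeting peptide that is cut off. ATP5MC1 had FPKM of 267, 229 and 186 in LT and 482, 379 and 505 in ST, with a log2 difference of 1.01 ± 0.24 (SE) and an adjusted p of 0.0781, or 0.0469 with the block. ATP5MC3 had 16.0, 12.6 and 8.24 FPKM in LT and 20.2, 18.6 and 25.5 FPKM in ST, with an adjusted p of 0.133. ATP5MC2 was not reached by the name rule and was found by its position on chromosome 5, with 148, 141 and 160 FPKM in LT and 129, 122 and 147 FPKM in ST. ATP5MC1 and ATP5MC3 thus had ST values above all LT values, while ATP5MC2 overlapped with a log2 difference of −0.18 ± 0.18 (SE) and an adjusted p of 0.598.

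The share of ATP5MC1 in the FPKM of the 3 genes was therefore higher in ST. It was 61.9%, 59.9% and 52.4% in LT against 76.4%, 73.0% and 74.6% in ST, or 58.1% ± 4.98 (SD, n = 3) against 74.7% ± 1.71 (SD, n = 3). The shares did not overlap, with a difference of 16.6 percentage points. The exact permutation test, 2-sided, gave p = 0.1, the smallest it can give with 3 against 3 libraries, and 0.5 after adjustment over the 5 families compared. The 3 genes share much of their coding sequence, so fragments could be divided between them.

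**Figure D4:**
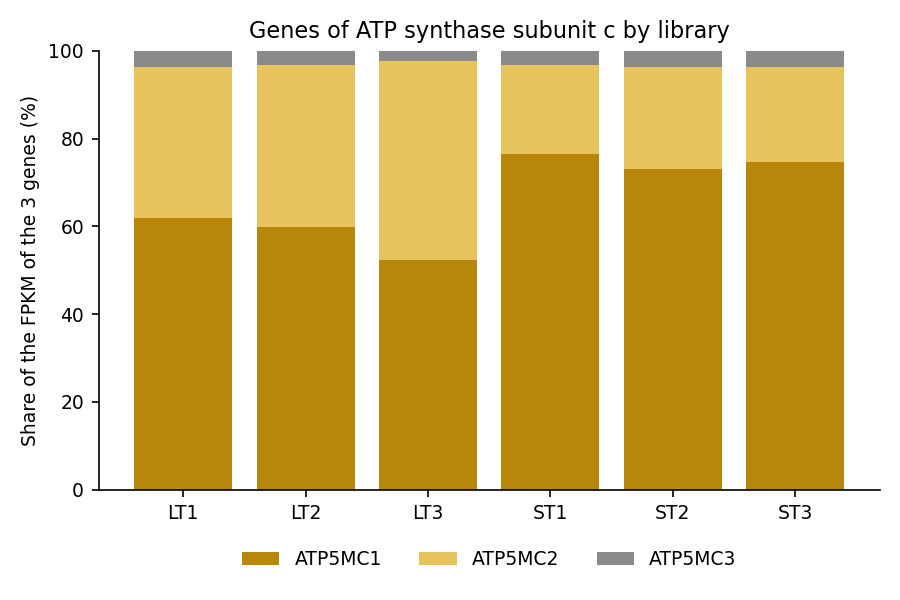
Stacked bars give the share, in percent, of ATP5MC1, ATP5MC2 and ATP5MC3 in their summed FPKM in each library. The share of ATP5MC1 is 52.4% to 61.9% in LT and 73.0% to 76.4% in ST.

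The differences varied between pigs. The log2 difference of ST and LT of the same pig was above 0 for 61 of 64 genes in pig 1, 50 in pig 2 and 62 in pig 3. The median over the 64 genes was 0.55 in pig 1, 0.35 in pig 2 and 0.93 in pig 3, against 0.24, 0.13 and 0.12 over all genes tested. ST2 was the lowest ST library for 52 of the 64 genes, and LT3 was the lowest LT library for 48. The summed FPKM of the 64 genes was 1.58 times as high in ST in pig 1, 1.35 times in pig 2 and 2.01 times in pig 3.

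In pig 2 the complexes were not alike. The median log2 difference was 0.37 for complex I, 0.26 for complex II, 0.55 for complex III, 0.21 for complex IV and 0.52 for complex V. In pig 3 these medians lay between 0.85 and 1.07. The 14 genes lower in ST than in LT of pig 2 included NDUFV2, UQCR10 and COX7C, at log2 differences of −0.40, −0.12 and −0.06, while NDUFA4, CYC1 and UQCRC1 were higher by 0.92, 0.88 and 0.78.

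Fibre markers also differed between ST and LT of the same pig. The median of the 64 genes minus that of all genes tested was 0.30 in pig 1, 0.23 in pig 2 and 0.81 in pig 3. The summed slow fibre markers were 5.43 times as high in ST in pig 1, 1.34 times in pig 2 and 7.15 times in pig 3, and their median log2 difference was 1.91. TNNI1, troponin I of slow fibres, had 587, 368 and 383 FPKM in LT and 2320, 387 and 2490 FPKM in ST. TNNI2, troponin I of fast fibres, had 8020, 8400 and 7530 FPKM in LT and 1460, 6020 and 458 FPKM in ST. ST2 thus lay within or near the range of LT for both. Without ST2 the median log2 difference of the 64 genes was 0.75 and that of all genes 0.22. The 20 genes called without ST2 were 7 of complex I, 2 of complex II, 4 of complex III, 3 of complex IV and 4 of complex V. In complex I they were NDUFB6, NDUFA4, NDUFV1, NDUFA8, NDUFA9, NDUFA11 and NDUFS1, with adjusted p from 0.0189 for NDUFA4 to 0.0411 for NDUFS1. UQCRFS1, UQCRC1, UQCRC2 and CYC1 of complex III had 0.0365 to 0.0492. COX5A of complex IV, beside COX7B and COX7A2L, had 0.0299. ATP5MC1 and ATP5F1C, the gamma subunit, had 0.0287 and 0.0449 beside ATP5PB and ATP5PO. With the pig as a block 3 slow fibre markers were called, and 0 without it. The part of fibre type in the differences of the subunit genes was not tested.

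**Figure D5:**
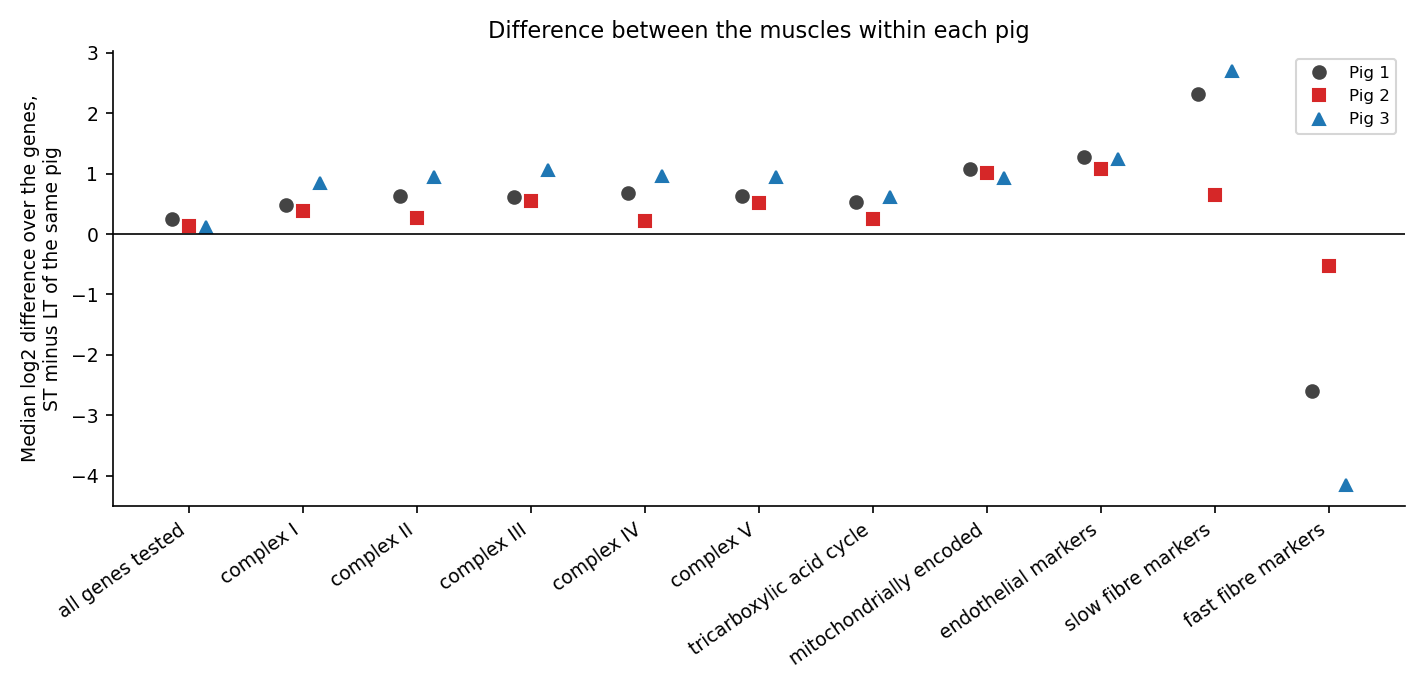
Points give the median log2 difference of FPKM + 0.1, ST minus LT of the same pig, over all genes tested, each complex, and lists of other genes, with a symbol for each pig. The slow fibre markers are at 0.64 in pig 2 and above 2 in pigs 1 and 3, while the mitochondrially encoded subunits lie between 0.93 and 1.07 in all 3 pigs.

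Markers of other cell types differed between the muscles in part. The fibroblast, erythrocyte, and nerve and Schwann cell markers had 0 genes at an unadjusted p under 0.05 by limma. The endothelial markers had the largest median log2 difference in size, 1.20. The endothelial markers, 4 of 5 with values, were all higher in ST, with PECAM1 and CDH5 called by limma and all 4 with the pig as a block, and summed to 39.8 to 63.6 FPKM in LT and 105 to 149 FPKM in ST. The adipocyte markers summed to 139 to 243 FPKM in LT and 230 to 317 FPKM in ST. LPL, which muscle fibres also express, was called higher at 169 to 186 FPKM against 62.1 to 74.0 FPKM, while the other 5 of 6 had values below 0, with a median over the list of −0.82. The leukocyte markers (5 of 5) summed to 10.6 to 11.5 FPKM in LT and 10.7 to 18.3 FPKM in ST. All 5 had log2 differences above 0 (65.4% of all genes), with a median of 0.46. By limma 2 of them were higher at an unadjusted p under 0.05 (15.2% of all genes). The fibroblast markers (5 of 5) summed to 571 to 1180 FPKM in LT and 610 to 1110 FPKM in ST. The erythrocyte markers (3 of 4) summed to 675 to 1050 FPKM in LT and 574 to 1020 FPKM in ST, and the nerve and Schwann cell markers (3 of 4) to 0.611 to 18.4 FPKM and 0.460 to 10.7 FPKM. None of these markers was at 0 in any library. The part of these cells in the differences of the subunit genes was not tested.

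The subunits encoded in mitochondrial DNA, which join these genes in complexes I, III, IV and V, were higher in ST as well. Of 13 genes, 12 had ST values above all LT values (19.2% of all genes). At an unadjusted p under 0.05, 11 were higher (15.2% of all genes), with a median log2 difference of 0.94 and 0 called. With the pig as a block 7 were called (5.82% of all genes). Together they reached 23800, 20800 and 30800 FPKM in LT against 57400, 45600 and 61400 in ST. The ratio of this sum to that of the 64 nuclear genes stood at 3.23, 2.96 and 5.21 for LT against 4.91, 4.81 and 5.18 for ST. LT3, the lowest LT library in the nuclear genes, was the highest in the mitochondrial ones, and the ratios overlapped (exact permutation test, 2-sided, p = 0.4). ATP8 and ND3 had the smallest p, with log2 differences of 1.19 and 1.18 and adjusted p of 0.0700 and 0.0741, or 0.0267 and 0.0422 with the block.

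Enzymes of the tricarboxylic acid cycle and of pyruvate entry, which supply the NADH and succinate, had 10 of 18 genes higher and 0 lower at an unadjusted p under 0.05, with a median of 0.41, and 0 were called, or 4 with the pig as a block. PDHA1, of pyruvate dehydrogenase, had 93.7, 94.1 and 84.7 FPKM in LT and 174, 184 and 241 FPKM in ST, a log2 difference of 1.12 with an adjusted p of 0.0509, or 0.0306 with the block. No ST library fell into the range of LT. For this list and those below, 15.2% of all genes tested were higher at an unadjusted p under 0.05 and 5.43% lower. With the block 5.82% of all genes were called higher.

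Among electron carriers and genes of coenzyme Q synthesis, 11 of 18 were higher and 1 lower at an unadjusted p under 0.05, with a median of 0.55. COQ3, a methyltransferase of coenzyme Q synthesis, was called, at 7.97, 8.55 and 7.79 FPKM in LT and 17.3, 14.7 and 14.9 FPKM in ST. Its log2 difference was 0.93 with an adjusted p of 0.0475. COQ7, which acts in the same pathway, had a log2 difference of 1.08 and an adjusted p of 0.0568, or 0.0326 with the block, and 6 genes of this list were called with the pig as a block. GPD2, which feeds in electrons from cytosolic glycerol phosphate, was the gene with lower values, at 31.1, 22.2 and 29.9 FPKM in LT and 4.52, 18.6 and 5.31 FPKM in ST.

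The assembly factors of the complexes had a median log2 difference of 0.17, equal to that of all genes tested. Of 52 tested, 9 were higher and 5 lower at an unadjusted p under 0.05, and 0 were called. AIFM1, which takes part in import and assembly of complex I, had a log2 difference of 1.09 with an adjusted p of 0.0539, and ECSIT, also of complex I assembly, of 0.77 with an adjusted p of 0.0668. Both were called with the block, at 0.0326 and 0.0407. UQCC2, of complex III assembly, had 78.9, 84.7 and 46.1 FPKM in LT and 39.0, 38.0 and 36.0 FPKM in ST, and PET100, of complex IV assembly, 41.8, 43.0 and 36.4 FPKM in LT and 26.3, 30.3 and 27.4 FPKM in ST. Neither overlapped between the muscles, with adjusted p of 0.117 and 0.119. The difference between assembly factors and subunits was not tested.

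Regulators of mitochondrial biogenesis had 7 of 16 genes higher and 0 lower at an unadjusted p under 0.05, with a median of 0.44 and 5 called with the pig as a block. PPARA, a nuclear receptor of fatty acid oxidation, was called, at 2.94, 3.71 and 3.75 FPKM in LT and 7.62, 10.4 and 9.41 FPKM in ST, a log2 difference of 1.37 with an adjusted p of 0.0355. The coactivator PPARGC1B had a log2 difference of 0.95 with an adjusted p of 0.0700, or 0.0440 with the block. PPARGC1A, which drives mitochondrial biogenesis, had 4.49, 5.81 and 3.05 FPKM in LT and 10.5, 68.7 and 23.1 FPKM in ST. Its highest library was ST2, the lowest ST library for most subunits. The log2 difference was 2.54 with an adjusted p of 0.0826, or 0.0286 with the block.

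Among inner membrane carriers and proteins of supercomplexes and cristae, 7 of 13 were higher and 0 lower at an unadjusted p under 0.05, with a median of 0.57 and 3 called with the pig as a block. IMMT, which shapes cristae junctions, was called, at 23.0, 25.7 and 25.5 FPKM in LT and 47.6, 46.5 and 61.8 FPKM in ST, with a log2 difference of 1.06 and an adjusted p of 0.0471. CHCHD10, of the space between the membranes, had a log2 difference of 0.86 and an adjusted p of 0.0713, or 0.0447 with the block. The proteins of the cytosolic ribosome, a group of short and abundant RNAs like those of the subunits, gave 0 of 47 higher and 1 lower, RPS27L, with a median of −0.09. After quantile normalization COQ3, PPARA and IMMT had adjusted p of 0.0746, 0.0658 and 0.0569, while RPS27L was still called, at 0.0430.

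Further subunits lay outside the name match, because their symbol is not attached to the gene in the table used. By position, 10 such genes were found, and 9 of them had log2 differences above 0, with a median of 0.60 and 7 at an unadjusted p under 0.05. NDUFS7, a core subunit of complex I near the ubiquinone site, had 124, 99.9 and 83.9 FPKM in LT and 255, 182 and 215 FPKM in ST. It did not overlap, with a log2 difference of 1.09 ± 0.22 (SE) and an adjusted p of 0.0660, or 0.0295 with the block. ATP5F1B, the catalytic beta subunit of ATP synthase, had 665, 535 and 353 FPKM in LT and 994, 814 and 1060 FPKM in ST, a log2 difference of 0.92 ± 0.31 (SE) with an adjusted p of 0.149. NDUFAB1, an acyl carrier protein and complex I subunit that the rule does not name, had 36.9, 32.1 and 30.7 FPKM in LT and 65.8, 50.5 and 72.5 FPKM in ST, with an adjusted p of 0.0667, or 0.0357 with the block.

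Single transcripts of the 64 genes gave fewer calls than the summed genes. Of 120 transcripts tested, 0 had an adjusted p under 0.05 by limma (0.146% of 52102 transcripts of all kinds), while at an unadjusted p under 0.05 40 were higher (5.87% of all transcripts) and 1 was lower (3.82%). The main transcript of UQCRC1, of 1779 bases, had 149, 147 and 146 FPKM in LT against 274, 283 and 281 FPKM in ST. The libraries of a muscle differed by a few percent, yet the adjusted p was 0.143 for a log2 difference of 0.92 ± 0.15 (SE). The lower transcript was a 306-base transcript of NDUFA5, at 3.44, 1.51 and 2.11 FPKM in LT and 0, 0.618 and 0 in ST, while NDUFA5 as a whole had a log2 difference of 0.24, or 0.40 without ST2.

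Transcripts without annotation were listed on the opposite strand of 37 of the 64 genes. They had a median of 6.76% of the FPKM of the gene, from 0.683% at ATP5F1A to 120% at NDUFS8, and 25 of the 54 transcripts overlapped the gene by at least 90% in both directions. The opposite strand was higher in ST at 31 of the 37 genes, with a median log2 difference of 0.42, against 0.63 for the genes themselves. At NDUFS8 it had 46.7, 36.6 and 34.8 FPKM in LT and 68.2, 45.5 and 57.5 FPKM in ST, more than NDUFS8 itself in each of the 6 libraries, and at ATP5MC3, ATP5ME, NDUFB6 and SDHA it had 87.8%, 70.0%, 33.4% and 32.9% of the FPKM of the gene. The library kit keeps strand, but the strand setting of the assembly was not given in the sources used here, so the values of these genes may include or lack such fragments.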

How the data were processed

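Total RNA of LT and ST muscles of 3 Min pigs was sequenced in 6 libraries after removal of rRNA, with a directional kit. Reads were filtered by the authors with SOAPnuke, aligned by HISAT2 to Sscrofa11.1 and assembled by StringTie, and the deposited values are FPKM of single transcripts. No fragment counts came with these values, so count models were not used, and depth limits precision to an unknown degree. FPKM normalises each library to its mapped fragments, so abundant transcripts of a library lower all its other values.

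Ensembl gene IDs were paired with symbols (14657 of 20288 protein-coding genes matched), and further subunits were found by overlap with RefSeq genes of the same assembly. FPKM was summed per gene, and ST was compared with LT by limma 3.58.1 (R 4.3.3) with a trend of the variance, after transformation to log2(FPKM + 0.1), over the 13994 genes with FPKM above 0.1 in at least 1 library. The p-values were adjusted by Benjamini-Hochberg, and a call was an adjusted p under 0.05. Fold differences are on the log2(FPKM + 0.1) scale, which understates those of low genes. The method was tested on simulated data with independent noise in each library and log2 changes larger than most differences of the subunit genes. The simulation held no pairing by pig, so it does not show how often differences of this size are called. Isoform shares and ratios were compared with 2-sided exact permutation tests. These treated the LT and ST libraries as unpaired, and no version that keeps the pairing by pig was run. Sums, shares and counts came from pandas 2.3.3, numpy 2.4.6 and scipy 1.17.1 under Python 3.11.15, and plots from matplotlib 3.10.9.

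The pig was no part of the model and was added as a block in an alternative. The paper states that LT and ST samples came from the same pigs, and residuals of same-numbered libraries correlated at 0.342, 0.345 and 0.348 over 9963 genes, against −0.27 to −0.13 for other pairs. The n is 3 pigs.

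The genes and lists were chosen with earlier results of these data known, and no list is independent evidence. Genes named were all called members, in each complex the highest member and the one with the smallest p in each direction, members of isoform pairs, SDHA to SDHD, CYC1, the 3 largest differences, and the 2 smallest p of each other list. Others were named after their values were seen. Some genes are not reported here by name. The alternatives were other pseudocounts and filters, the block, rescaling to nuclear transcripts, quantile normalization, median-ratio scaling, no variance trend, the highest transcript of a gene alone, and leaving out each library. Unannotated transcripts were used for the opposite strand alone.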

Additional observations from a re-analysis of the deposited data

How the results depend on the processing

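The number of the 64 genes called higher in ST, 1 by the model as reported, depended most on the setting. It was 2 with mean FPKM above 1, 14 with the pig as a block (replicate block), 13 with FPKM rescaled to nuclear transcripts, and 0 with quantile normalization, with median-ratio scaling, with no variance trend and with the highest transcript alone. Leaving out each library in turn gave 0 to 20, with 20 without ST2 and 0 without any other library. After the data were seen, the replicate block was added to other settings. It gave 0 with quantile normalization, 0 with median-ratio scaling, 28 with nuclear rescaling, 0 without pig 1, 22 without pig 2 and 0 without pig 3. The cause was not tested. The count at an unadjusted p under 0.05, 36, was 55 with the block and nuclear rescaling and 23 with the block without pig 3. Transcripts called, 0 as reported, were 0 to 3 when each library was left out, 2 without ST2 and 3 without ST3. The median of complex V, 0.62, was 0.82 with the block without pig 2 and 0.57 to 0.81 without each library. NDUFS4, at −0.25, was at 0.49 with the highest transcript alone, at 0.23 with the block without pig 2, and between −0.59 and 0.17 without each library, reversed without LT2. COX6B2, at −0.34, was at 0.24 with a pseudocount of 0.01, at 0.20 with the block without pig 3, and between −1.17 and 0.083 without each library. For the 26 genes named by rule, 508 comparisons with an alternative kept direction and side of the threshold, 43 passed the threshold newly, 13 lost it and 7 reversed. Counts called with the replicate block in the lists of other genes stand beside each list. Using annotated transcripts alone gave identical sums, since every summed transcript is annotated.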
